A study of Homo sapiens with 4 samples.

Results

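A stretch of 3.18 Mb on the long arm of human chromosome 19, with gene starts from 42507304 to 45687460 on GRCh38, was examined gene by gene in MHCC97H cells with and without UBXN1 knockdown. The set comprised the 63 protein-coding genes that start in this stretch, of 61541 genes in the count table, after zinc finger genes and some other genes had been left out by symbol. The stretch holds 94 protein-coding genes of the table, of which 31 were left out by the rule, 24 of them zinc finger genes. The interval was chosen on the fold changes of shUBXN1 over shCon in these same libraries, because neighbouring genes there were higher in shUBXN1. Every fold change and call of a member below therefore describes the data that chose it and is no test of the interval. Of the 63 members, 39 passed the filter on low counts and 24 did not.

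MHCC97H is an established human hepatocellular carcinoma line. RNA was sequenced from 2 libraries of cells labelled shCon and 2 libraries of cells labelled shUBXN1, all with a short hairpin RNA delivered by lentivirus. The methods name the control hairpin shRFP, and which of the UBXN1 hairpins the sequenced cells carried is not given in the sources used here, so a single hairpin cannot be told apart from the loss of UBXN1. Nothing in the labels says that the 2 libraries of a group came from separate cultures, so p-values measure only the spread between these libraries.

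This part of chromosome 19 is known for gene families that arose by tandem duplication. The CEACAM and PSG genes encode immunoglobulin-like cell surface and secreted glycoproteins, and the Ly6 and uPAR domain genes encode small cysteine-rich surface proteins. Among them lie genes of very general use, such as the excision repair genes ERCC1, ERCC2 and XRCC1, and BCL3, an IκB-like nuclear protein that binds the p50 and p52 subunits of NF-κB. In the liver, CEACAM1 is a surface protein of hepatocytes with a role in insulin clearance, and PLAUR is the receptor that holds the protease urokinase at the cell surface.

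The deposited values were expected counts, with 27380508 and 24305174 counts in the shCon libraries and 23433826 and 23373700 in the shUBXN1 libraries. Levels are given as CPM, counts relative to the TMM-scaled library size, and as TPM, which also corrects for gene length, where genes are compared with each other. UBXN1 itself was at 67.1 and 77.3 CPM in shCon and at 16.8 and 18.5 CPM in shUBXN1, a log2 fold change of -2.03 (SE 0.0963, Benjamini-Hochberg adjusted p = 9.98e-10 by the quasi-likelihood test of edgeR). The hepatocyte regulator HNF4A was present at 46.9 to 61.8 CPM and KRT8 and KRT18 at 895 to 3467 CPM, while GPC3 was at 0 counts in all 4 libraries. The leukocyte gene PTPRC had at most 4 counts, but CD68, on the same list, was at 82.4 and 88.3 CPM in shCon. In shUBXN1, CD68 was at 72.9 and 70.5 CPM. The endothelial gene PECAM1 was at 33.4 and 33.2 CPM in shCon and 43.0 and 41.9 CPM in shUBXN1, whereas VWF had at most 34 counts. Of other hepatocyte marker genes, ALB was at 18.0 and 17.2 CPM in shCon and 4.2 and 4.78 CPM in shUBXN1. TTR had 38 and 34 counts in shCon and 5 and 3 in shUBXN1. SERPINA1 went the other way, at 8.21 and 9.02 CPM in shCon and 10.9 and 11.8 CPM in shUBXN1. AFP was at 5.89 and 5.49 against 5.37 and 3.93 CPM and was not called. The epithelial gene EPCAM had 10 and 14 counts in shCon and 19 in each shUBXN1 library. The fibroblast gene COL1A1 had 10 and 4 counts against 58 and 59. The part of these differences in the results below was not tested.

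The DNA at 4 gene starts is shown because it sits at the members on which the description turns. These are CADM4, KCNN4, IRGQ and POLR1G. CADM4 is the member with the largest fold change among those above 1 CPM in both shCon libraries. KCNN4 is the most abundant member with a fold change above 2, and IRGQ is a member called higher, at 14.8 TPM in shCon. The upstream DNA of POLR1G is shared with PPP1R13L, a gene read in the other direction. Each is the run of 250 bases before the RefSeq start on GRCh38.p14, in the direction of the gene. Capitals mark matches, on either strand, to the kappaB motif, to AP-1 (TGANTCA), to the E-box (CACGTG) or to the ETS motif (CCGGAAG). The sequence of CADM4, at chr19:43639851-43640100 on the minus strand, holds none of the 4, that of KCNN4 at chr19:43780974-43781223 on the minus strand holds an E-box and overlapping kappaB matches, that of IRGQ at chr19:43596135-43596384 on the minus strand holds an AP-1 match, and that of POLR1G at chr19:45406394-45406643 on the plus strand holds an E-box.
CADM4: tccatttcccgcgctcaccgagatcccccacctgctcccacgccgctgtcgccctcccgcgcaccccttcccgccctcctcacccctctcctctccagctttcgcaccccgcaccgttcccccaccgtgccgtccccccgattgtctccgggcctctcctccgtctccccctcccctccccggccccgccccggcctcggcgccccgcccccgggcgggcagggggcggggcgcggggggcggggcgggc
KCNN4: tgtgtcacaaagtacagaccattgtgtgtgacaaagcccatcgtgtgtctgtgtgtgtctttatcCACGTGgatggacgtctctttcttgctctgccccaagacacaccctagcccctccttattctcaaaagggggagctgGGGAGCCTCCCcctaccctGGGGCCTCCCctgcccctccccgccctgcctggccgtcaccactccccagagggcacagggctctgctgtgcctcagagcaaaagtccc
IRGQ: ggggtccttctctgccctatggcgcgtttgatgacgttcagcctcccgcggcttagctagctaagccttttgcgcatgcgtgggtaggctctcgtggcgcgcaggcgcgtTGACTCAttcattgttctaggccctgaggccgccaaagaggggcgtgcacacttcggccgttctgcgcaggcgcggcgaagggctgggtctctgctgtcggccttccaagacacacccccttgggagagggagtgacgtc
POLR1G: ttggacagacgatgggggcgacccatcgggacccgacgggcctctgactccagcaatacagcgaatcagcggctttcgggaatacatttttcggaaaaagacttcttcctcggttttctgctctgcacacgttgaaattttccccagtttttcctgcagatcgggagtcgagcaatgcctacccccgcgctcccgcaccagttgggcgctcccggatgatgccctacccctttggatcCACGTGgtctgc
For BCL3, a kappaB match lies from base 3 to base 12 of the transcript, and the 30 bases at chr19:44748700-44748729 on the plus strand are given with it in capitals.
BCL3: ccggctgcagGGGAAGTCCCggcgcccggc

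Among the 39 tested members, the median log2 fold change was 0.64, and 31 members had a positive value. The median over all 16863 genes tested was 0.02, and that over 977 tested protein-coding genes of chromosome 19 was 0.19. At an adjusted p under 0.05, 23 members (59.0%) were called higher in shUBXN1 and 5 (12.8%) lower, where 28.0% of all genes tested were called higher and 28.2% lower. Both shUBXN1 libraries lay above both shCon libraries in 27 members (69.2%) and below them in 7 (17.9%), where these shares were 39.4% and 38.6% over all genes tested. When a 2-fold change was required with an unadjusted p under 0.05, 9 members (23.1%) were called higher and 1 (2.56%) lower, against 11.8% and 6.09% of all genes tested. Since this contrast chose the interval, nothing is read from these differences in share. Summed over all 63 members, the level was 1601 and 1705 CPM in shCon and 2027 and 2111 CPM in shUBXN1.

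**Figure D1:**
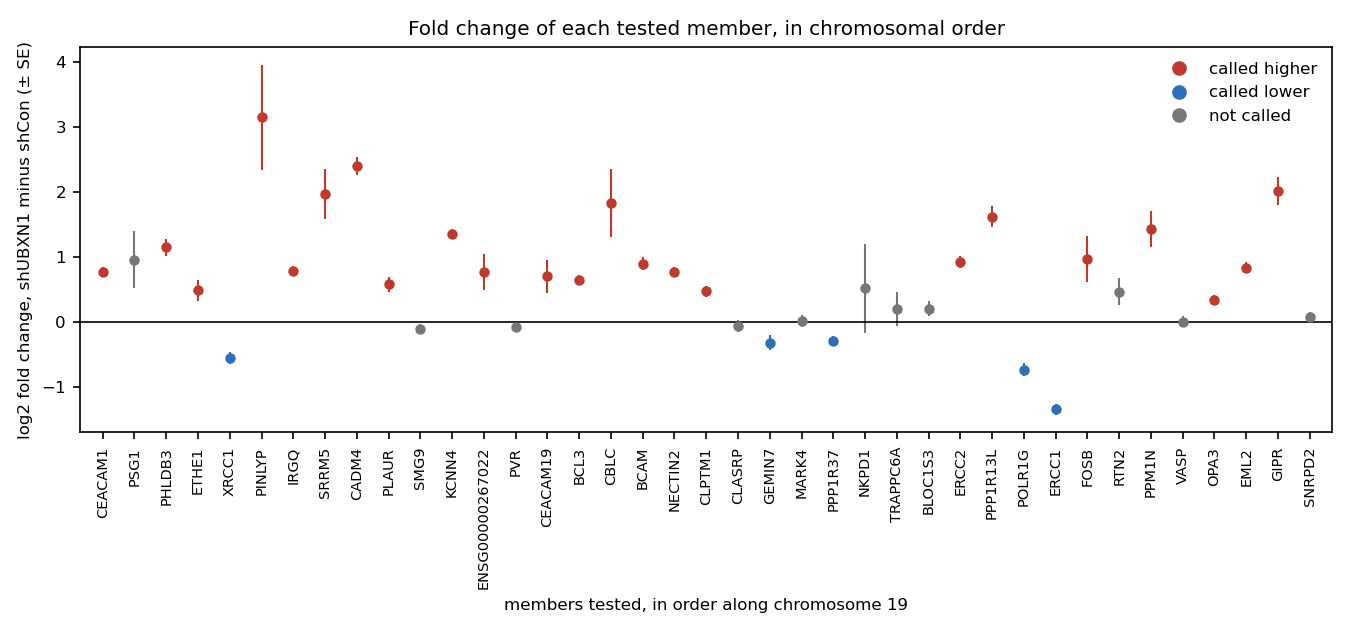
The log2 fold change of shUBXN1 over shCon (vertical axis, bars ± SE, 2 libraries per group) for the 39 tested members in their order along chromosome 19. Red members were called higher (23), blue lower (5) and grey neither (11), and the blue members (XRCC1, GEMIN7, PPP1R37, POLR1G and ERCC1) sit among red and grey ones.

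Of 5 immunoglobulin-like adhesion and nectin genes, 4 were tested and 3 were called higher, where 28.0% of all genes tested were. Counts by gene group, here and below, rest on few genes and are not read as results about the groups. CADM4, an immunoglobulin-like cell adhesion molecule, was at 3.56 and 4.21 CPM in shCon and 20.2 and 20.9 CPM in shUBXN1. The groups were far apart, with a log2 fold change of 2.41 (SE 0.143). NECTIN2, a nectin that natural killer and T cells recognise, was at 119 and 125 CPM in shCon and 195 and 218 CPM in shUBXN1 (0.76 on the log2 scale, SE 0.0783). BCAM, the Lutheran antigen and a laminin receptor, was at 17.3 and 17.6 CPM in shCon and 32.0 and 33.0 CPM in shUBXN1 (0.90, SE 0.0949). PVR, the poliovirus receptor and a relative of NECTIN2 that binds overlapping receptors, did not share this. It was at 111 CPM in both shCon libraries and at 102 and 109 CPM in shUBXN1 (-0.07, SE 0.0726), and 20.6% of its exon bases are shared with other annotated genes on the same strand. IGSF23, the fifth member of this group, had between 0 and 4 counts in each library and was not tested.

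In the CEACAM and PSG families, 3 of 15 members were tested and 2 were called higher, where 28.0% of all genes tested were. CEACAM1 was at 74.2 and 78.1 CPM in shCon and 130 and 131 CPM in shUBXN1, with no overlap and a log2 fold change of 0.78 (SE 0.0726). CEACAM19 was at 3.04 and 3.41 CPM in shCon and 6.47 and 3.97 CPM in shUBXN1 (0.70, SE 0.259). The shUBXN1 libraries were uneven here, and without shUBXN1 library 1 the log2 fold change was 0.30 and the call was lost, as it was without shCon library 1 (0.61). PSG1, one of the pregnancy-specific glycoproteins of the placenta, was at 0.675 and 0.596 CPM in shCon and 1.33 and 1.15 CPM in shUBXN1 (0.96, SE 0.442) and was not called. The PSG genes together had 29 and 22 counts in shCon and 48 and 31 in shUBXN1, and because their sequences are nearly identical the division of reads among them is uncertain. CEACAM8, CEACAM16 and CEACAM20 had at most 5 counts in any library.

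Of 6 members with Ly6 or uPAR domains, 2 were tested and both were called higher, where 28.0% of all genes tested were. PLAUR was at 13.5 and 16.2 CPM in shCon and 21.3 and 22.9 CPM in shUBXN1 (0.58, SE 0.118). PINLYP, a phospholipase A2 inhibitor with a Ly6 domain, had the largest fitted value (3.16, SE 0.81) but very few reads, with 4 and 0 counts in shCon and 22 and 14 in shUBXN1. Its size depended on a single control library, since the log2 fold change was 7.16 without shCon library 1 and 2.27 without shCon library 2. LYPD3 had 1 and 7 counts in shCon and 8 in each shUBXN1 library, LYPD5 had 1 count in 1 library, and TEX101 and CD177 were at 0 in all 4 libraries.

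Of the NF-κB, p53 and immediate early group, to which CBLC was added, 4 of 4 members were called higher, where 28.0% of all genes tested were, and their depth differed widely. BCL3 was at 49.6 and 50.7 CPM in shCon and 76.2 and 80.5 CPM in shUBXN1 (0.64, SE 0.0754). PPP1R13L, which encodes the p53 inhibitor iASPP, was at 4.01 and 5.11 CPM in shCon and 14.3 and 13.7 CPM in shUBXN1 (1.62, SE 0.161). In both genes the libraries of a group lay close together and the groups were apart. FOSB, an immediate early AP-1 subunit, was at 1.05 and 2.0 CPM in shCon and 3.31 and 2.65 CPM in shUBXN1 (0.98, SE 0.355). CBLC, an E3 ubiquitin ligase of the Cbl family, was at 0.225 and 0.511 CPM in shCon and 1.58 and 1.03 CPM in shUBXN1 (1.83, SE 0.529). These low genes lost their calls without shCon library 1 (FOSB 0.57, CBLC 1.34) or without shUBXN1 library 1 (FOSB 0.80, CBLC 1.48), and without shCon library 2 the values were 1.5 for FOSB and 2.51 for CBLC.

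**Figure D2:**
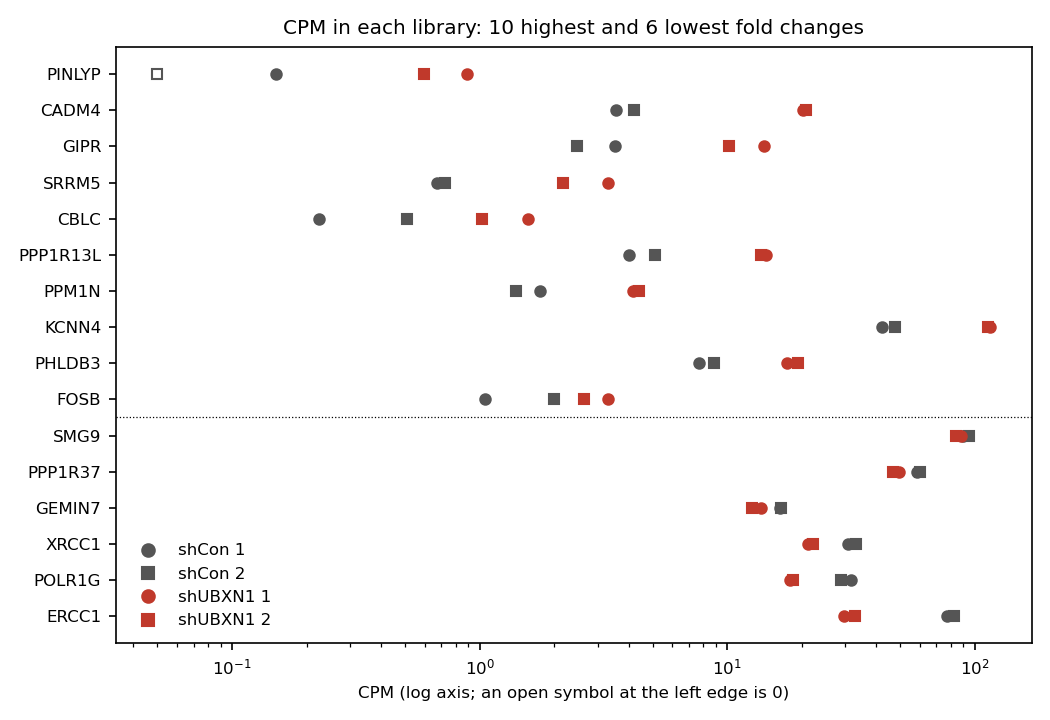
CPM (horizontal log axis) in each of the 4 libraries for the 10 members with the highest and, under the dotted line, the 6 with the lowest log2 fold change. Grey symbols are shCon and red symbols shUBXN1, with circles for library 1 and squares for library 2. All 10 upper genes have both red symbols to the right of both grey ones, from PINLYP at under 1 CPM to KCNN4 at 113 and 116 CPM in shUBXN1, and the 6 lower genes have them to the left.

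KCNN4, the calcium-activated potassium channel of intermediate conductance, was at 42.2 and 47.7 CPM in shCon and 116 and 113 CPM in shUBXN1. Its log2 fold change was 1.35 (SE 0.0805), and no other member above 30 TPM in shCon passed a fold change of 2 upwards. GIPR, the receptor for the incretin hormone GIP, was at 3.53 and 2.47 CPM in shCon and 14.1 and 10.2 CPM in shUBXN1 (2.01, SE 0.214). The third gene of this group, the proton-sensing receptor gene GPR4, was at 0 counts in both shCon libraries and 6 and 2 counts in shUBXN1, too few to test.

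Further members called higher came from many functions. PPM1N, a phosphatase of the PP2C family, was at 1.76 and 1.40 CPM in shCon and 4.16 and 4.4 CPM in shUBXN1 (1.43, SE 0.277). PHLDB3, a protein with a pleckstrin homology-like domain, was at 7.69 and 8.90 CPM in shCon and 17.5 and 19.3 CPM in shUBXN1 (1.15, SE 0.131). SRRM5, a serine and arginine repetitive matrix gene, was at 0.675 and 0.724 CPM in shCon and 3.31 and 2.18 CPM in shUBXN1 (1.97, SE 0.382). All 3 were low in control cells, and SRRM5 shares 18.5% of its exon bases with a gene on the opposite strand. IRGQ, of the immunity-related GTPase family, was at 59.6 and 60.4 CPM in shCon and 103 and 104 CPM in shUBXN1 (0.79, SE 0.0724). EML2, a microtubule-associated protein, was at 28.6 and 30.3 CPM in shCon and 54.6 and 50.4 CPM in shUBXN1 (0.84, SE 0.0845). CLPTM1, a multipass membrane protein, was at 174 and 185 CPM in shCon and 229 and 269 CPM in shUBXN1 (0.47, SE 0.085). In shCon, CLPTM1 was at 146 TPM, EML2 at 19.8 TPM and IRGQ at 14.8 TPM. These genes had smaller changes and no overlap between groups. Both genes for mitochondrial proteins were called higher, where 28.0% of all genes tested were. OPA3 was at 55.8 and 55.0 CPM in shCon and 68.5 and 71.1 CPM in shUBXN1 (0.33, SE 0.0743). ETHE1, a sulfur dioxygenase, was at 6.23 and 7.58 against 9.21 and 10.1 CPM (0.49, SE 0.162). ETHE1 lost its call without shCon library 1 (0.34) or without shUBXN1 library 2 (0.42). The readthrough gene ENSG00000267022 (0.77, SE 0.277) shares all of its exon bases with zinc finger genes, so its reads cannot be assigned to it, and its call was lost without shCon library 1 (0.86), without shCon library 2 (0.69) or without shUBXN1 library 1 (0.64).

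The DNA repair and RNA polymerase genes went the other way in 3 of 4 cases, where 28.2% of all genes tested were called lower. ERCC1, the partner of the nuclease ERCC4 in nucleotide excision repair, was at 77.2 and 82.4 CPM in shCon and 29.7 and 32.8 CPM in shUBXN1. Its log2 fold change of -1.35 (SE 0.083) was the lowest in the set, and ERCC1 was the only member called lower at a fold change of 2. POLR1G, a subunit of RNA polymerase I, was at 31.8 and 28.8 CPM in shCon and 17.9 and 18.5 CPM in shUBXN1 (-0.74, SE 0.0992). The exons of ERCC1 and POLR1G overlap on opposite strands, over 49.8% of the exon bases of POLR1G and 28.6% of those of ERCC1. Whether strand was used in counting is not given in the sources used here, so reads of the overlap cannot be told apart. XRCC1, the scaffold of base excision repair, was at 30.7 and 33.2 CPM in shCon and 21.2 and 22.2 CPM in shUBXN1 (-0.56, SE 0.0947), and shares 20.04% of its exon bases with antisense genes. ERCC2, a helicase of the repair and transcription factor TFIIH, was at 27.5 and 33.1 CPM in shCon and 58.0 and 56.3 CPM in shUBXN1 (0.92, SE 0.0931). It lies before POLR1G and ERCC1, with PPP1R13L as the only tested member between, and was called in the opposite direction to both.

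The remaining genes called lower were PPP1R37 and GEMIN7. PPP1R37, a regulatory subunit of protein phosphatase 1, was at 58.4 and 59.9 CPM in shCon and 49.4 and 46.7 CPM in shUBXN1 (-0.30, SE 0.0767), and lost its call without shCon library 2 (-0.28). GEMIN7, of the SMN complex that assembles spliceosomal particles, was at 16.4 and 16.5 CPM in shCon and 13.7 and 12.6 CPM in shUBXN1 (-0.32, SE 0.116). An antisense gene covers 74.0% of its exon bases, and its call was lost without shCon library 1 (-0.33), shCon library 2 (-0.32) or shUBXN1 library 2 (-0.27). Without shCon library 2, the number of members called lower was 3. Of the 5 members called lower, 4 shared at least 10% of their exon bases with another annotated gene, as did 4 of the 23 called higher and 1 of the 11 not called. PPP1R37 was the member called lower that shared less.

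The 11 members that were not called held the 2 most abundant genes, SNRPD2 and VASP, and ranged down to NKPD1 at 0.157 TPM in shCon. SNRPD2, a core Sm protein of the spliceosome and the most abundant member at 705 TPM in shCon, was at 231 and 264 CPM in shCon and 258 and 261 CPM in shUBXN1 (0.07, SE 0.0804). VASP, which promotes actin filament elongation, was at 163 and 176 CPM in shCon and 160 and 179 CPM in shUBXN1 (0.00, SE 0.0797). The groups overlapped in both. SMG9, of nonsense-mediated decay, was at 90.1 and 94.9 CPM in shCon and 87.8 and 84.2 CPM in shUBXN1 (-0.10, SE 0.0735), and CLASRP, an SR-related splicing protein, at 41.6 and 47.3 against 44.4 and 40.3 CPM (-0.07, SE 0.0898). MARK4, a microtubule-affinity regulating kinase, gave 0.01 (SE 0.093), and the trafficking genes BLOC1S3 and TRAPPC6A gave 0.20 each (SE 0.116 and 0.265). The signs of PVR, CLASRP, MARK4, VASP and SNRPD2 turned under other settings or without 1 library. RTN2, a reticulon of the endoplasmic reticulum, was at 4.13 and 3.66 CPM in shCon and 5.41 and 5.34 CPM in shUBXN1 (0.46, SE 0.211), above the controls in both libraries but not called. NKPD1, at 18 and 2 counts in shCon and 15 and 12 in shUBXN1 (0.51, SE 0.691), was too uneven in the controls to give a direction.

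The 24 members that were not tested had at most 9 counts in any library, and 6 were at 0 in all 4. KLC3, a kinesin light chain gene, had 0 counts in both shCon libraries and 5 and 8.02 in shUBXN1, and CKM, the muscle creatine kinase gene, had 0 in both shCon libraries and 9 and 3 in shUBXN1. A count of 0 in a library allows up to 3 counts, so no fold is given. PSG5 went from 6 and 5 counts in shCon to 5 and 1 in shUBXN1. The number of members with at least 1 count was 46 and 43 in shCon and 54 and 49 in shUBXN1. Over the whole table this number also rose, from 24042 and 23580 genes in shCon to 25517 and 24362 in shUBXN1.

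The fold change was larger in members of low level in control cells. Of 13 tested members under 5 TPM in shCon, 10 were called higher and none lower, with a median log2 fold change of 1.43. Between 5 and 30 TPM, 7 of 10 were called higher and 1 lower (median 0.68), and at 30 TPM or more, 6 of 16 were called higher and 4 lower (median 0.04). Over all genes tested, at any level, 28.0% were called higher and 28.2% lower. Shares of all genes at each level are not given here, so these counts are not read as particular to the members. Across the 39 tested members, Spearman's rho between the log2 fold change and the mean shCon TPM was -0.59, and over all genes tested it was -0.37. The control libraries enter both quantities, genes are not independent replicates, and low genes pass the filter more easily when they are high in shUBXN1, so these are descriptions. In absolute terms, the 23 members called higher summed to 558 TPM in shCon and 982 TPM in shUBXN1, the 5 called lower to 250 and 145 TPM, and the 11 not called to 1036 and 1122 TPM. GC content of the exons did not go with the fold change among the members (rho 0.05, n = 39 genes), with a median GC of 59.5% in those called higher and 56.3% in those called lower. The tested members were richer in GC than other genes, with a median of 58.0% against 48.1% over all genes tested. Over all genes tested, rho between fold change and GC was 0.13. With a GC correction, the median of the members minus that of all genes was 0.56, against 0.63 in the main fit.

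**Figure D3:**
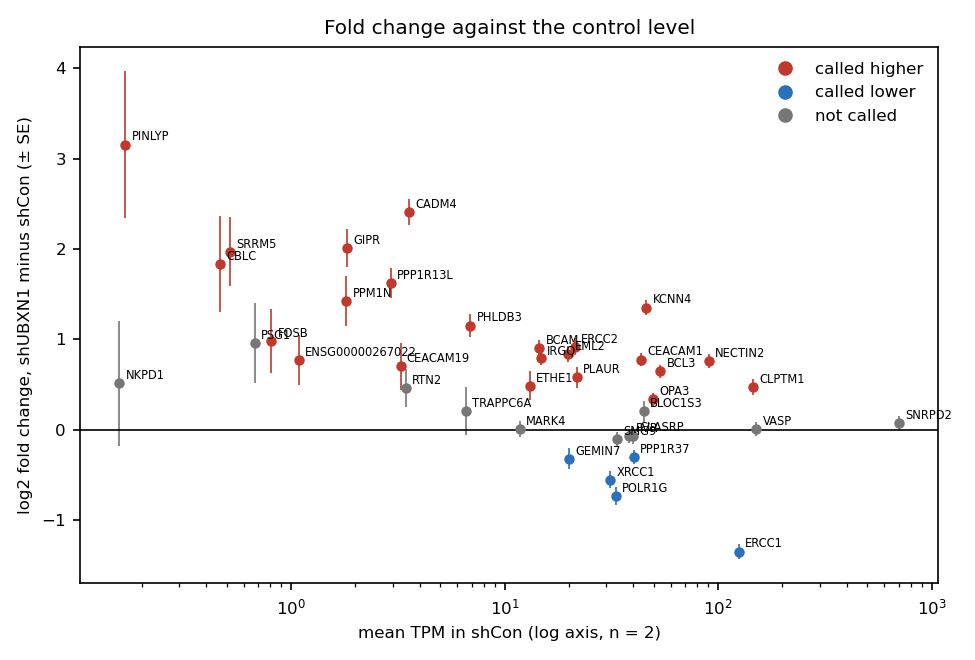
The log2 fold change (vertical axis, bars ± SE) against the mean TPM in the 2 shCon libraries (horizontal log axis) for the 39 tested members. The 13 members under 5 TPM have a median log2 fold change of 1.43 and the 16 at 30 TPM or more a median of 0.04, with KCNN4 above and ERCC1 below the other abundant members.

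The stretch was also divided by position, after the values were seen. Over the tested protein-coding genes of chromosome 19, 40.5% were called higher and 24.8% lower, and no difference between the divisions was tested. An array of 20 zinc finger genes from 43827321 to 44500524 splits the set. Before the array, from CEACAM1 to LYPD5, 9 of 12 tested members were called higher and 1 lower, with a median log2 fold change of 0.87. After the array and up to CLPTM1, 6 of 7 were called higher and PVR was not called (median 0.70). From CLASRP to SNRPD2, 7 of 19 were called higher, 4 lower and 8 neither (median 0.20). The longest run of tested members called higher was 6 genes, from CEACAM19 to CLPTM1. The members called higher were on both strands, 12 on the plus and 11 on the minus strand.

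Genes that start back to back, by their outermost GENCODE starts, did not always move together. PPP1R13L and POLR1G start 295 bases apart on opposite strands, and their log2 fold changes were 1.62 and -0.74, a difference of -2.36 (POLR1G minus PPP1R13L). ERCC1, which was called lower, overlaps 49.8% of the exon bases of POLR1G. Its reads there cannot be told apart from those of POLR1G, so the size of this difference is uncertain. The printed POLR1G sequence lies between these 2 starts. IRGQ and SRRM5 start 483 bases apart by this measure and were both called higher (0.79 and 1.97), but the RefSeq start of SRRM5, used for its promoter, lies further inside the gene. The starts of TRAPPC6A and BLOC1S3 are 547 bases apart, and both genes gave 0.20 without a call.

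The nearest genes on either side of the stretch differed in direction and size, and both flanks of 3 Mb also leaned higher. The first member, CEACAM1, follows CXCL17, which was at 2.59 and 1.79 CPM in shCon and 1.45 and 1.28 CPM in shUBXN1 (log2 fold change -0.68, SE 0.35), and LIPE, at 0.563 and 0.255 against 0.687 and 1.11 CPM (1.10, SE 0.545). After the last member, SNRPD2, came QPCTL, at 15.4 and 18.2 CPM in shCon and 29.3 and 32.7 CPM in shUBXN1 (0.88, SE 0.11), and FBXO46, at 18.8 and 18.9 against 22.4 and 18.5 CPM (0.12, SE 0.115). Among the protein-coding genes that start in the 3 Mb before the first member, 29 of 61 tested (47.5%) were called higher and 11 lower, with a median log2 fold change of 0.28. In the 3 Mb after the last member, 28 of 58 (48.3%) were called higher and 10 lower (median 0.27). Over all genes tested, 28.0% were called higher and 28.2% lower (median 0.02). Over the tested protein-coding genes of chromosome 19 these shares were 40.5% and 24.8% (median 0.19). Windows of 3 Mb over the whole chromosome were also compared, zinc finger genes included. The window from 42 to 45 Mb had the highest median of those with at least 20 tested genes (0.76). In it, 45 of 60 genes were called higher and 2 lower. This window holds many of the members, which were chosen on these same fold changes, so its rank is no test. It also counts genes that the rule left out. The window from 36 to 39 Mb gave 0.55, that from 57 to 60 Mb gave 0.54, and those from 48 to 57 Mb gave 0.38 to 0.39. All 7 windows up to 21 Mb lay between -0.25 and 0.11. The window directly before, from 39 to 42 Mb, gave 0.05, with 24 of 62 genes called higher and 18 lower. That window ends before the first member and includes zinc finger genes, whereas the 3 Mb up to the first member, counted without them, gave 0.28.

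**Figure D4:**
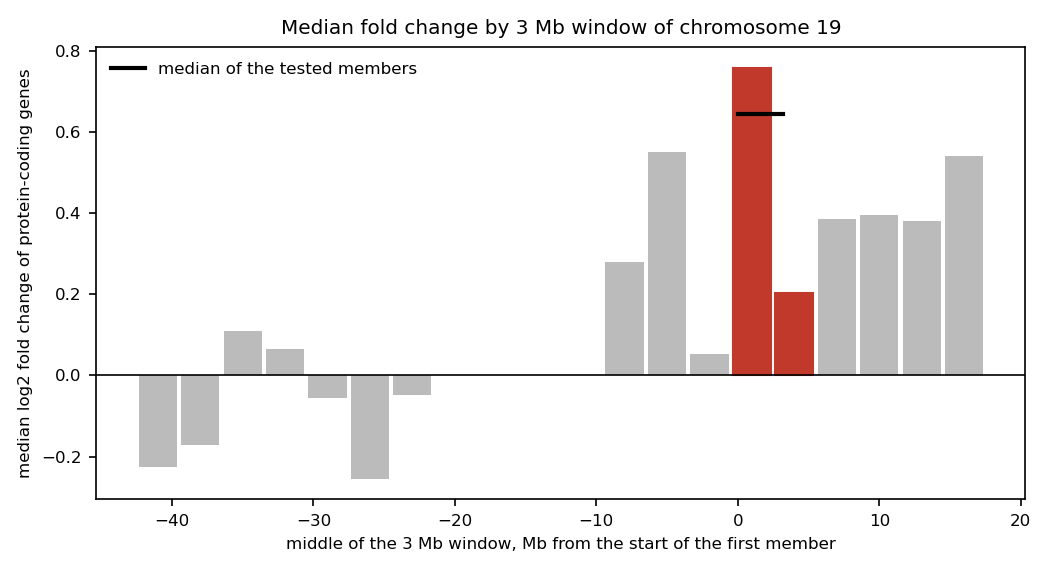
Median log2 fold change of shUBXN1 over shCon (vertical axis) of the tested protein-coding genes in windows of 3 Mb along chromosome 19, by the distance of the window's middle from the first member (horizontal axis, Mb), for windows with at least 20 tested genes. The red windows cover the stretch (0.76 and 0.20), the black line is the median of the tested members (0.64), and the 7 windows on the far left, on the short arm, lie between -0.25 and 0.11. The stretch was chosen on these same fold changes, so the height of the red windows is no test.

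Partner genes elsewhere in the genome, listed for what their products do with those of the members, were not uniform. Of 39 tested partners, 12 were called higher and 17 lower, with a median log2 fold change of -0.11, beside 28.0% and 28.2% of all genes tested. PLAU, the urokinase ligand of PLAUR, averaged 28.7 ± 0.394 CPM in shCon (SD of 2 libraries) against 82.8 ± 3.55 CPM in shUBXN1 (1.53, SE 0.0791), and JUNB, a dimer partner of FOSB, gave 1.11 (SE 0.0778), whereas FOS gave -1.67 (SE 0.226). For ERCC1 the partner ERCC4 went the other way (0.47, SE 0.0899), while XPA was called lower like ERCC1 (-0.40, SE 0.155). For XRCC1 its partners LIG3 (-0.59, SE 0.093) and PARP1 (-0.34, SE 0.0795) were also called lower while POLB was called higher (1.44, SE 0.129). POLR1E and POLR1A, which like POLR1G are subunits of RNA polymerase I, were called lower (-0.62 and -0.23). SNRPD1 was called lower (-0.79, SE 0.0771), unlike SNRPD2. For BCL3, NFKB2 was called higher (0.35, SE 0.0838) and NFKB1 lower (-0.21, SE 0.0783).

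RefSeq starts were matched for 47 of the 63 members and 33 of the 39 tested, 19 of which were called higher, and the 300 bases around each start were searched on both strands. A kappaB match was found in 3 of the 19 (CEACAM1, KCNN4 and BCL3), or 15.8%, against 10.8% of all 27305 promoters in the table. An AP-1 match was found in 3 of the 19 (IRGQ, SRRM5 and PLAUR), or 15.8%, against 7.76%. Over all 47 matched members, kappaB was found in 5 (10.6%) and AP-1 in 4 (8.51%), close to the shares over all promoters. Median promoter GC was 63% over the 47 members and 58.3% over all promoters. A GC box (GGGCGG) was found in 13 of the 19 (68.4%) against 44.6% of all promoters, and also in 3 of 5 members called lower and 6 of 9 not called. The E-box and the ETS motif were found in 1 each of the 19, against 7.43% and 10.7%. VASP held kappaB matches and SMG9 an AP-1 match without a call. The kappaB matches of KCNN4 overlap each other in part, and E-box and AP-1 matches overlapped no other motif in the printed sequences. These matches describe the letters in the window and were not tested against the fold changes.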

How the data were processed

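The 4 RNA-seq libraries of MHCC97H cells (2 shCon, 2 shUBXN1) were grouped by the sample labels. The authors deposited expected counts per gene for 61541 Ensembl genes, not normalized, with a gene length. The submitters' processing notes name HISAT2 2.0.4, StringTie 1.3.0 and GRCh37, whereas the methods name GRCh38. The gene identifiers matched GENCODE v44 on GRCh38 in 61369 cases, and positions were taken from there. The counting tool, the annotation and the use of strand are not given in the sources used here. Names of the mRNA library kit differ between the labels and the methods.

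Counts were rounded, filtered with filterByExpr, scaled by TMM and fitted with glmQLFit and glmQLFTest in edgeR 4.0.16 (R 4.3.3) over all 16863 genes passing the filter, with Benjamini-Hochberg adjustment at 0.05. The scripts were tested on simulated data. edgeR's biological coefficient of variation came to 0.0711. Replicates differed by more than sampling noise, with chi-square values per degree of freedom of 3.65 (shCon) and 7.77 (shUBXN1). TPM was computed from counts and the deposited length. Standard errors were the log2 fold change over the square root of F.

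The members and gene lists were chosen with earlier results of these data known. Named are all tested members, with values in every library for the 10 highest and 6 lowest fold changes, the 4 most abundant members, the ends of the interval and the genes of the role groups described. Alternatives used DESeq2 1.42.0, limma 3.58.1, other scalings, filters and a GC correction, a replicate block, and each library left out in turn. Promoters are from the RefSeq table for GRCh38.p14, which does not hold every member. Some genes of the interval are not reported here.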

Additional observations from a re-analysis of the deposited data

How the results depend on the processing

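The number of members called higher (23) and the number called higher at a fold change of 2 (9) stayed within 1.5 times under every alternative run, from 19 to 25 and from 6 to 12. The 5 called lower became 3 to 5 with 1 library left out, 3 of them without shCon library 2, and 1 among members that share under 10% of their exon bases, where no member was lower at a fold change of 2. The median log2 fold change of the tested members (0.64) was 0.73 with total count scaling, which moved the median of all genes to 0.10, 0.76 without a filter on low counts, 0.52 with limma on log2(TPM + 1), 0.53 with limma on log2(CPM + 1), 0.59 with a GC correction, 0.73 in members sharing under 10% of exon bases, 0.53 in members at 1 CPM or more in shCon and 0.61 to 0.69 with 1 library left out. Relative to all genes it was 0.47 to 0.68. The GC correction left part of the trend of fold change on GC over all genes (Spearman's rho 0.13 before, 0.06 after). The cause of these shifts was not tested.

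Signs turned only in members near 0 or of very low count. With total count scaling PVR was 0.0104 and CLASRP 0.0208, with the GC correction MARK4 was -0.0189 and VASP -0.0330, and without a filter VASP was -0.0025. With 1 library left out, CLASRP ran from -0.16 to 0.0288, MARK4 from -0.0655 to 0.0705, NKPD1 from -0.27 to 2.64, VASP from -0.0772 to 0.0757 and SNRPD2 from -0.0256 to 0.17. DESeq2 lost the calls of ETHE1, ENSG00000267022, CEACAM19, GEMIN7 and FOSB, limma on log2(TPM + 1) those of CEACAM19 and GEMIN7, and total count scaling that of GEMIN7. Among the members tested in the main fit, calls as higher were gained by PSG1 (at least 10 counts in every library, limma on TPM and on CPM), BLOC1S3 (limma on TPM, without shUBXN1 library 1), RTN2 (total count scaling) and NKPD1 (without shCon library 1). UBXN1 stayed between -2.14 and -1.93.

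The labels number the libraries 1 and 2 in each group, and nothing says that a number marks a shared batch. Across 10846 genes the replicate differences of the groups correlated with r = 0.14. With a replicate block, 23 members were called higher and 5 lower, the median was 0.67 and no member changed its call. With 2 libraries per group, the spread rests on 2 residual degrees of freedom per gene and on information shared across genes. The 24 members with at most 9 counts in every library were not tested in the main fit. Without the filter, 56 members were tested and 25 were called higher, some of them among these members of very few counts.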
